A study of Trichoderma reesei with 9 samples.

Results

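In the part of the study's list of called genes used here, 2 genes of *Trichoderma reesei* RUT-C30 are annotated as family GH71 α-1,3-glucanases, M419DRAFT_75378 and M419DRAFT_108342. Both were named by ID, with earlier results of these data known, and are 2 of the 9849 genes in the count table. The annotation was read from a shortened copy of the study's list of called genes, which held 2086 genes and was cut for the comparisons of high melanin necromass with glucose and with low melanin necromass. Other GH71 genes outside that copy would not be seen here. M419DRAFT_75378 and M419DRAFT_108342 both carried the enzyme class of glucan endo-1,3-α-glucosidases and the GH71 protein domain in the study's annotation. M419DRAFT_108342 also carried 2 CBM24 tags, which no other of those 2086 genes had. Transcripts of both genes were higher on necromass than on glucose, about 6.21-fold and 8.79-fold for M419DRAFT_75378 and about 24.5-fold and 32.7-fold for M419DRAFT_108342, on low and high melanin necromass respectively. The folds of M419DRAFT_108342 rested on 1 glucose library, without which they went from 4.62 to 6.01 and from 5.03 to 6.43 on the log2 scale.

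GH71 enzymes cut α-1,3-glucan, an α-linked glucose polymer that many Ascomycota hold in their cell walls beside β-glucan and chitin. In *Trichoderma harzianum* an enzyme of this kind, called mutanase, is known from attack on the walls of other fungi. CBM24 is a carbohydrate-binding module, which in the *T. harzianum* enzyme holds the protein to α-1,3-glucan. The fungus has α-glucan-active enzymes of other families too, among them α-glucosidases, which release single glucose units from the ends of α-linked chains.

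RNA came from 9 liquid cultures of RUT-C30, whose *cre1* gene is truncated, so that glucose no longer represses many genes of carbohydrate-active enzymes (CAZymes). Mycelium grown in malt extract broth was kept for a day in Highley's medium with no carbon and then given 1 of 3 carbon substrates for 7 days, with 3 cultures on each. These were glucose at 1% (w/v), and necromass of the low melanin or of the high melanin type at 0.45% (w/v). Both necromass types were dead mycelium of *Hyaloscypha bicolor* and each was harvested in bulk, so the 3 cultures of a type shared 1 preparation. The types were grown in different culture volumes and at different shaking speeds. The study also reports relatively more N-containing components and less sugar in the high melanin type. Glucose and necromass differed in amount as well as in kind, and all cultures were of 1 strain at 1 time. The study describes the 3 replicates of a substrate as biological and independent.

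Total counts ranged from 18074631 to 24635281 per library, and 1 count equalled 0.0428 to 0.0526 CPM, which are counts scaled to a library of 1000000 after normalisation. Glucose replicate 1 stood apart from the other glucose cultures. In a chi-square comparison of counts over genes, its statistic against them was 296 and 337 per degree of freedom, whereas the other 7 replicate pairs within a substrate gave 11.4 to 53.0. Results that rest on this library are therefore given with and without it. CPM is a share of all messenger RNA counted, so more transcripts per cell and less of other messages cannot be told apart. Both GH71 genes passed the filter of at least 10 counts in at least 3 libraries. M419DRAFT_75378 reached 10 counts in all 9 libraries, M419DRAFT_108342 only in the 6 necromass libraries, where it was high. The place of M419DRAFT_108342 in the filtered table was therefore not independent of its difference from glucose.

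The first question was how each gene was expressed on each substrate. M419DRAFT_75378, the GH71 gene without a binding module tag, had 60, 40 and 39 counts on glucose (replicates 1 to 3), which are 2.67, 2.09 and 1.92 CPM. On low melanin necromass it had 323, 296 and 237 counts, or 17.0, 13.2 and 11.5 CPM. On high melanin necromass the counts were 409, 511 and 370, or 17.5, 22.7 and 18.8 CPM. The lowest necromass library thus lay well above the highest glucose library, and the 3 high melanin libraries lay above the 3 low melanin libraries, the closest pair being 17.5 and 17.0 CPM. Of all genes tested, 39.1% had every low melanin library above every glucose library, 39.3% every high melanin library above every glucose library, and 24.7% every high melanin library above every low melanin library. The means were 2.23 ± 0.392 CPM (SD, n = 3) on glucose, 13.9 ± 2.81 CPM with low melanin and 19.7 ± 2.70 CPM with high melanin necromass.

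M419DRAFT_108342, the GH71 gene with the CBM24 tags, was close to the limit of detection on glucose, with 7, 1 and 1 counts, or 0.311, 0.0522 and 0.0492 CPM. On low melanin necromass it had 79, 65 and 82 counts, or 4.15, 2.91 and 3.97 CPM. On high melanin necromass it had 112, 121 and 89 counts, or 4.80, 5.37 and 4.51 CPM. No glucose library reached the level of any necromass library, and most of the 9 glucose counts came from replicate 1. A single count has an exact Poisson interval of 0.0253 to 5.57 counts, so the glucose level of replicates 2 and 3 is known only to within that range. Here too every high melanin library lay above every low melanin library. The means were 0.138 ± 0.150 CPM (SD, n = 3) on glucose, 3.68 ± 0.673 CPM with low melanin and 4.89 ± 0.439 CPM with high melanin necromass. Levels of the 2 genes are not set against each other, since transcript lengths were not used here.

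**Figure D1:**
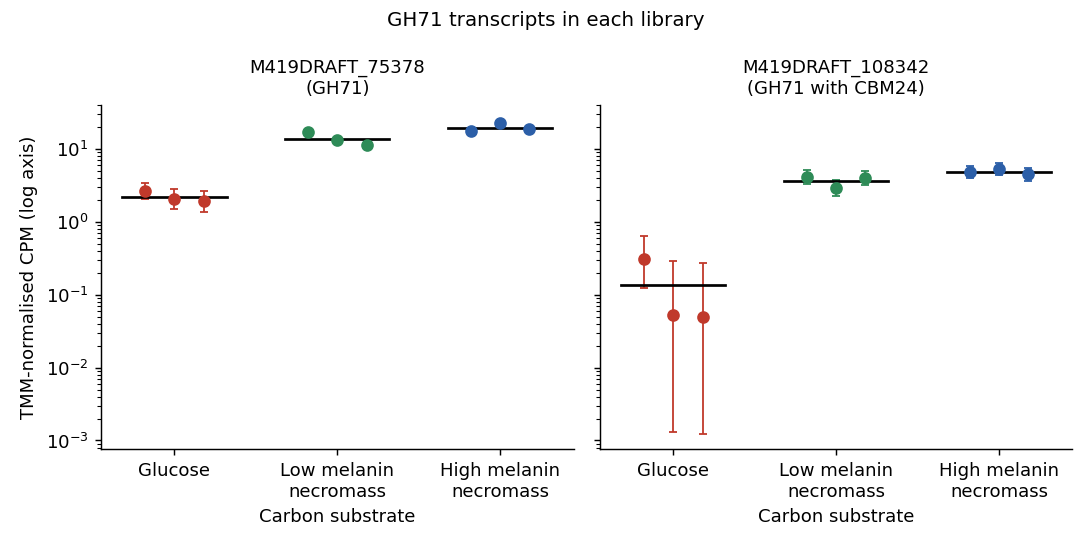
TMM-normalised CPM (log axis) of both GH71 genes in each of the 9 libraries, by carbon substrate, with replicates 1 to 3 from left to right. Points are libraries with 95% exact Poisson intervals (counting error only) and black lines are group means. M419DRAFT_75378 lies between 1.92 and 2.67 CPM on glucose and between 11.5 and 22.7 CPM on necromass, and M419DRAFT_108342 between 0.0492 and 0.311 CPM and between 2.91 and 5.37 CPM.

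The spread between cultures can be set beside the spread that counting alone would give. For M419DRAFT_75378 the coefficient of variation was 20.2% on low and 13.7% on high melanin necromass, against 5.92% and 4.82% from counting. For M419DRAFT_108342 it was 18.3% and 8.96%, against 11.5% and 9.65%. On glucose the values were 17.6% against 14.7% for M419DRAFT_75378 and 109% against 57.7% for M419DRAFT_108342. The replicates of M419DRAFT_75378 on necromass thus varied by more than counting error, whereas those of M419DRAFT_108342 on high melanin necromass varied by about as much as counting error. The genes did not order the low melanin cultures alike. M419DRAFT_75378 was lowest in replicate 3 and M419DRAFT_108342 in replicate 2. Both were highest in replicate 1 on low and in replicate 2 on high melanin necromass.

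The comparison of necromass with glucose asked whether the GH71 genes were expressed differently on whole necromass than on glucose. Both genes were higher on both necromass types. The study says that the glucose and necromass cultures may have been in different growth phases, which was not tested here. A call needed an adjusted p under 0.05 in the edgeR test together with a change of 2 or more on the log2 scale. Of the 9312 genes tested, 12% were called higher with low melanin and 13.5% with high melanin necromass as compared to glucose. On low melanin necromass the log2 fold change of M419DRAFT_75378 was 2.63 (SE 0.21, 95% interval 2.16 to 3.11, adjusted p = 3.13e-06, by the quasi-likelihood test of edgeR, Benjamini-Hochberg adjusted over all genes tested). On high melanin necromass it was 3.14 (SE 0.22, 95% interval 2.65 to 3.62, adjusted p = 8.35e-07, same edgeR test). Each interval lay above the fold change threshold of 2 on the log2 scale. Without glucose replicate 1 the values were 2.78 and 3.28.

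For M419DRAFT_108342 the log2 fold change was 4.62 on low melanin necromass (SE 0.46, 95% interval 3.57 to 5.66, adjusted p = 1.32e-05, quasi-likelihood test of edgeR). On high melanin necromass it was 5.03 (SE 0.46, 95% interval 4.0 to 6.07, adjusted p = 5.70e-06, same edgeR test). The size of these changes rested on glucose replicate 1, without which they were 6.01 and 6.43. Summed over libraries, M419DRAFT_108342 had 226 counts on low melanin necromass against 9 on glucose, a ratio of 25.1 after scaling (95% exact interval 13.0 to 55.6, counting error only). Without glucose replicate 1 the glucose sum was 2 counts and the ratio 71.9 (19.7 to 597). On high melanin necromass the sum was 322 counts, a ratio of 33.8 (17.6 to 74.6), or 96.8 (26.6 to 803) without that library. The fold thus did not settle at 1 value. Since the gene passed the filter only through the necromass libraries, its p-values in the filtered table are a description. With no filter on low counts its log2 fold changes were 4.62 (adjusted p = 1.16e-05) and 5.02 (adjusted p = 5.06e-06, both by the edgeR test).

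A rise on necromass was thus common in this table, and the 2 GH71 genes were among many. A larger log2 fold change on low melanin necromass was found for 8.29% of the genes tested than that of M419DRAFT_75378, and for 2.58% than that of M419DRAFT_108342. On high melanin necromass the shares were 7.25% and 2.68%. Both comparisons used the same 3 glucose libraries.

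**Figure D2:**
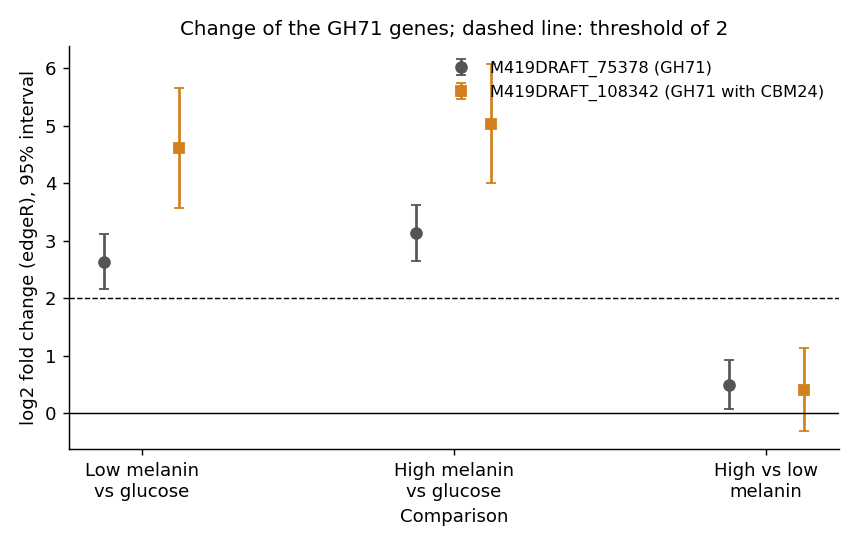
log2 fold change of both GH71 genes in the 3 comparisons (vertical axis, edgeR quasi-likelihood fit of all 9 libraries), as points with 95% intervals; the dashed line is the threshold of 2. Against glucose every interval lies above the threshold, from 2.16 upwards for M419DRAFT_75378 and from 3.57 upwards for M419DRAFT_108342, while between the necromass types all lie below it.

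The comparison of the necromass types asked whether GH71 expression differed between the low and the high melanin preparation, which differed in more than melanin content. Neither gene passed the test. M419DRAFT_75378 was 1.41-fold as high on the high as on the low melanin type, or 0.50 on the log2 scale (SE 0.19, 95% interval 0.07 to 0.93, unadjusted p = 0.0264, adjusted p = 0.136, quasi-likelihood test of edgeR). M419DRAFT_108342 was 1.33-fold as high, or 0.41 on the log2 scale (SE 0.32, 95% interval −0.30 to 1.13, adjusted p = 0.453, same edgeR test). The intervals allow a difference of up to 1.90-fold for M419DRAFT_75378 and up to 2.19-fold for M419DRAFT_108342. Every high melanin library was above every low melanin library for both genes, an order shared by the 24.7% of genes given above. An adjusted p under 0.05 with high melanin higher was reached by 5.26% of genes at any fold change, and 0.655% were also past the fold change threshold.

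Whether M419DRAFT_75378 differed between the necromass types depended on the samples in the fit. When only the 6 necromass libraries were fitted, its adjusted p was 0.0389, and without glucose replicate 1 it was 0.0417. Over all alternatives it ranged from 0.0389 to 0.414 (edgeR's quasi-likelihood or DESeq2's Wald test, glmTreat left out). In the fit of the 6 necromass libraries 2909 genes had an adjusted p under 0.05 between the necromass types, and without glucose replicate 1 2371 genes had. The main fit gave 856 (edgeR's quasi-likelihood test), so the lower adjusted p was not particular to this gene. The log2 fold change of M419DRAFT_75378 itself was 0.50 in both of those alternative fits. For M419DRAFT_108342 the adjusted p ranged from 0.0981 to 0.709 over the same alternatives.

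The next comparison set the 2 genes against each other within each library, where library size cancels. Of the counts of both genes together, M419DRAFT_108342 gave 10.4%, 2.44% and 2.50% on glucose. It gave 19.7%, 18% and 25.7% with low melanin and 21.5%, 19.1% and 19.4% with high melanin necromass. All glucose libraries lay below all necromass libraries, and the necromass types overlapped. The mean share was 5.13 ± 4.61% (SD, n = 3) on glucose, 21.1 ± 4.05% on low and 20.0 ± 1.29% on high melanin necromass. These shares also depend on transcript length, which is the same in every library, so only their change between substrates can be read.

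The log2 ratio of M419DRAFT_108342 to M419DRAFT_75378 was −4.16 ± 1.00 (SD, n = 3) on glucose, −1.91 ± 0.34 on low and −2.0 ± 0.11 on high melanin necromass. It was higher by 2.25 on low melanin necromass than on glucose and by 2.17 on high melanin necromass (two-sided exact permutation test, p = 0.10 in both cases, the smallest that 3 against 3 allows, adjusted p = 0.15 over the 3 pairs of substrates). Between the necromass types the ratio differed by −0.09 (exact permutation p = 0.80, adjusted p = 0.80). Without glucose replicate 1 the differences from glucose were 2.83 and 2.74. The larger relative rise of M419DRAFT_108342 is a description in which the groups did not overlap, at a p that this design cannot bring below 0.05. The gene was close to the limit of detection on glucose and passed the filter only through the necromass libraries. The share of other gene pairs with such a gap was not counted.

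**Figure D3:**
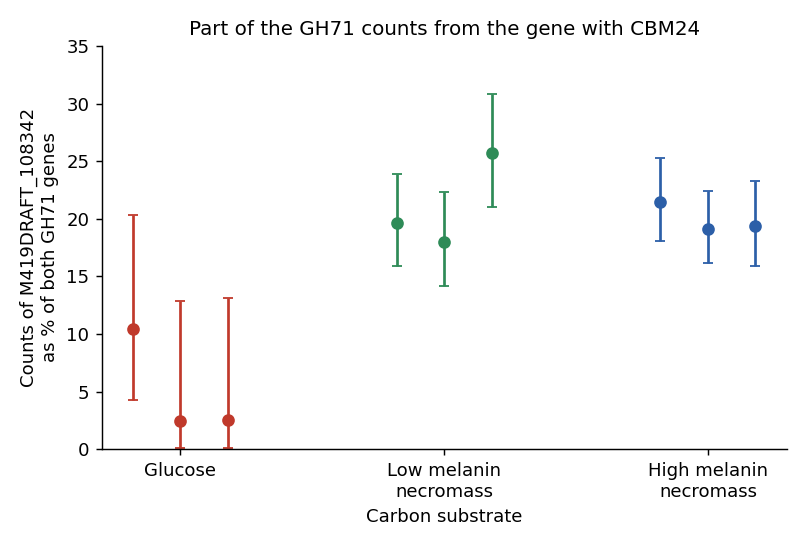
Counts of M419DRAFT_108342 as a percentage of the counts of both GH71 genes in each library (vertical axis), by carbon substrate, replicates 1 to 3 from left to right. Bars are 95% Clopper-Pearson intervals (counting error only). The glucose libraries lie between 2.44% and 10.4% and the necromass libraries between 18% and 25.7%, while the interval of glucose replicate 1 (4.30% to 20.3%) reaches into the necromass range.

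Among the other α-glucan families searched for, the shortened copy of the annotation held 2 further genes, both of the α-glucosidase class. Others may stand in the part not used here. M419DRAFT_134448, of family GH31, had 22, 20 and 11 counts on glucose. It had 3568, 3691 and 3790 counts with low melanin and 3275, 3316 and 3134 counts with high melanin necromass. The log2 fold changes against glucose were 7.70 with low melanin (SE 0.20, edgeR adjusted p = 7.46e-09) and 7.43 with high melanin necromass (SE 0.20, edgeR adjusted p = 7.40e-09). In the main fit this α-glucosidase gene rose by more than either GH71 gene, about 208-fold on low and 173-fold on high melanin necromass. This holds by values only, since the differences between genes were not tested. Without glucose replicate 1, the count ratios of M419DRAFT_108342 had intervals of 19.7 to 597 and 26.6 to 803 (counting error only). These intervals include the folds of M419DRAFT_134448.

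M419DRAFT_75171, of subfamily GH13_40, had 2.89 ± 0.188 CPM (SD, n = 3) on glucose, 12.1 ± 1.92 CPM with low melanin and 19.4 ± 1.91 CPM with high melanin necromass. It rose from glucose by 2.07 (SE 0.17, edgeR adjusted p = 3.42e-06) and 2.74 (SE 0.17, edgeR adjusted p = 4.68e-07) on the log2 scale. Between the necromass types it was higher by 0.68 with high melanin (SE 0.16, edgeR adjusted p = 0.0271), under the fold change threshold. Its 3 high melanin libraries, from 17.7 to 21.4 CPM, lay above its 3 low melanin libraries, from 10.2 to 14 CPM.

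The 4 genes found for the α-glucan list, M419DRAFT_108342 included, were called higher on both necromass types, with a median log2 fold change of 3.63 on low and 4.08 on high melanin necromass, where the medians over all genes tested were 0.01 and 0.02. Among the 16 genes found of families that act on wall β-glucan (GH16, GH17, GH30_3, GH55, GH64 and GH128), 6 were called higher and 8 lower on low melanin necromass, and 7 higher and 8 lower on high melanin necromass. Their medians were −1.58 and −1.90, and over all genes tested 7.18% and 8.8% were called lower. Among the 140 genes found with a CAZyme tag, 96 and 99 were called higher and 30 and 32 lower, with medians of 3.17 and 3.74. M419DRAFT_108342 ranked 47th and M419DRAFT_75378 80th of the 140 by log2 fold change on low melanin necromass, and 51st and 79th on high melanin necromass. The GH71 genes thus lay on either side of the median of these 140. These lists come from genes that the study called on the same samples, so their directions are not independent evidence, and family members that the study did not call are not in them. The copy was also cut in its comparisons with high melanin necromass, so counts, medians and ranks hold only for the genes found.

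**Figure D4:**
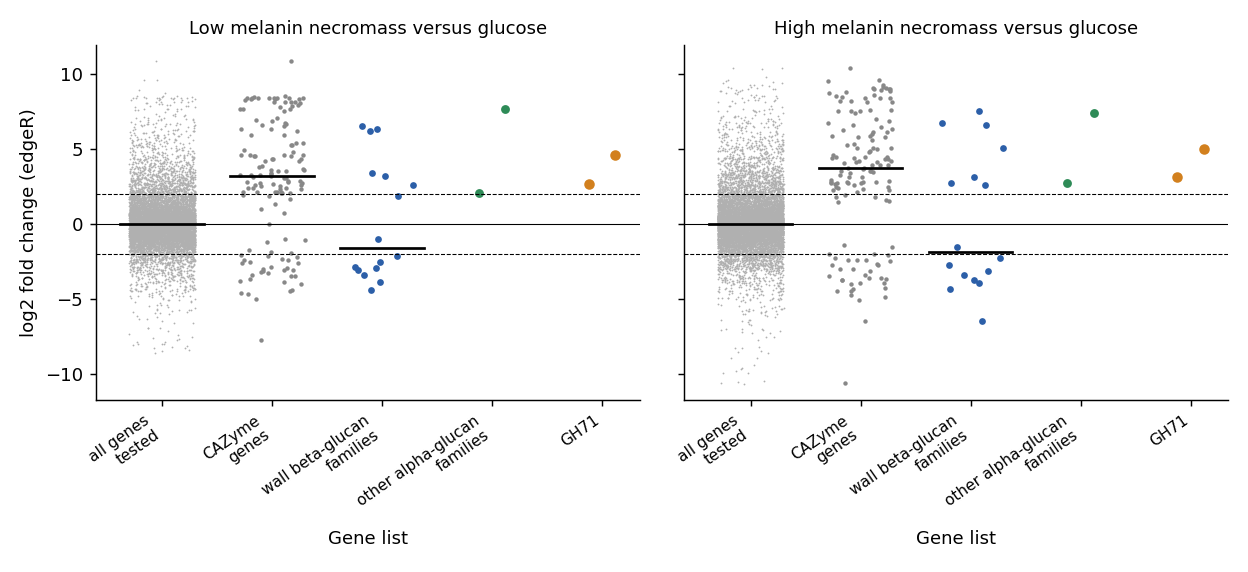
log2 fold change against glucose (vertical axis) on low (left) and high melanin necromass (right) for all 9312 genes tested, the 140 CAZyme genes found, the 16 genes found of wall β-glucan families, the 2 other α-glucan genes and the 2 GH71 genes. Points are genes, thick lines are medians and dashed lines the threshold of 2 in either direction; the GH71 genes lie at 2.63 and 4.62 on the left and at 3.14 and 5.03 on the right.

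Genes of like pattern were sought among the 8895 other genes with a mean of at least 1 CPM, by the root mean square distance between log2 CPM profiles over the 9 libraries, each centred on its own mean. The nearest to M419DRAFT_75378 were M419DRAFT_85254, annotated as a sugar transporter (distance 0.17), M419DRAFT_108243 (0.18) and M419DRAFT_34795, annotated as a catalase (0.19). M419DRAFT_34795 rose by like amounts between substrates, at 1.66 ± 0.152 CPM (SD, n = 3) on glucose, 10.4 ± 1.91 CPM with low melanin and 13.7 ± 0.884 CPM with high melanin necromass. Within each necromass type it did not order the libraries as M419DRAFT_75378 did. Of the CAZyme genes found, the nearest to M419DRAFT_75378 were M419DRAFT_39277 of GH27, a family of α-galactosidases (0.25), M419DRAFT_72094 of glycosyltransferase family GT31 (0.26) and M419DRAFT_36756 of AA12, a family of oxidoreductases (0.29).

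For M419DRAFT_108342 the nearest were M419DRAFT_38429, with a subtilase domain (0.25), M419DRAFT_39268 of GH95, a family of α-fucosidases (0.28), and M419DRAFT_70199, with an F-box domain (0.28). M419DRAFT_70199 showed the same near absence on glucose, with 4, 0 and 0 counts, against 50, 55 and 50 counts on low and 60, 47 and 46 counts on high melanin necromass. After M419DRAFT_39268, the nearest CAZyme genes were M419DRAFT_122639 of GH3, a family of β-glucosidases (0.38), and M419DRAFT_77360 of oxidoreductase subfamily AA3_2 (0.39). In 10 of the 11 genes of like pattern glucose replicate 1 was the highest glucose library, as it was for both GH71 genes. These genes were chosen by likeness over all libraries, this one included, so the shared trait follows largely from the choice. Its share over all genes was not counted. M419DRAFT_38429 had 42, 18 and 19 counts on glucose, and M419DRAFT_122639 had 236, 89 and 61. What sets this culture apart was not tested.

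The GH71 genes were not among each other's nearest genes by this measure, at a distance of 0.81. For M419DRAFT_108342 the other GH71 gene ranked 334th of the 8895 genes compared, and for M419DRAFT_75378 it ranked 1417th of 8895. Their profiles had a Pearson correlation of 0.99 over the 9 libraries, which is a description only, since the libraries of a substrate share it and the contrast of necromass with glucose sets most of its value. The correlation takes no account of how far a gene moves, and M419DRAFT_108342 spanned the wider range between glucose and necromass.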

How the data were processed

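Poly(A)-selected RNA libraries, 1 a culture, were sequenced in paired-end mode. The authors processed and trimmed the reads with CHURP, quantified them with kallisto version 0.48.0 against the RUT-C30 transcripts and imported them with tximport. The deposited values are estimated counts per gene as whole numbers, not scaled for library size or length. kallisto divides reads shared by similar transcripts by estimation. The study called genes with DESeq2 version 1.42.0, and its values were not used. Of its supplementary gene table only annotation tags were used, for the 2086 genes in a copy that was cut for both comparisons with high melanin necromass.

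A gene was tested if 3 or more libraries had 10 or more counts of it (9312 genes) with edgeR version 4.0.16 under R version 4.3.3, with TMM factors and a quasi-likelihood fit of all 9 libraries in 3 groups. Benjamini-Hochberg adjustment covered all genes tested, and a call needed an adjusted p under 0.05 with a change of 2 or more on the log2 scale. The filter follows the study's methods. Total counts ranged from 18074631 to 24635281 per library, and intervals from counts cover counting error only. The ratio of the GH71 genes used 0.5 added to each count and exact permutation tests with scipy version 1.17.1, under Python version 3.11.15 with pandas version 2.3.3 and plots by matplotlib version 3.10.9. The search for like patterns used log2 CPM with a prior count of 2. Alternatives were DESeq2, other scaling factors, no filter, only the 2 groups compared, glmTreat, a block for the replicate number, and leaving out each library in turn. On simulated data for low melanin necromass versus glucose with a log2 fold change of 3 or −3, 199 of 200 changed genes among 9267 were recovered with 1 false call. The simulation gave every gene the same spread, changed no other genes and had no library that stood apart. Its rates therefore do not carry over to these data.

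Named genes were the GH71 genes, the other genes of the α-glucan list, and for each GH71 gene the 3 nearest genes and 3 nearest CAZyme genes by pattern. The α-glucan list took tags GH71, GH31, GH13, GH15, GH133, GT5, CBM20, CBM21 and CBM24. Members and lists were chosen with earlier results of these data known. The reference gene table, of strain QM6a, matched 0 of the gene IDs, so positions and sequences were not used here.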

Additional observations from a re-analysis of the deposited data

How the results depend on the processing

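Both GH71 genes kept their direction and their side of the threshold in all 3 comparisons under each of 16 alternatives. With 1 library left out, the log2 fold change of M419DRAFT_75378 ranged from 2.47 to 2.78 with low melanin and from 3.03 to 3.28 with high melanin necromass, and that of M419DRAFT_108342 from 4.22 to 6.01 and from 4.63 to 6.43. The largest values of all were without glucose replicate 1, since M419DRAFT_108342 then had 2 counts on glucose. The ratio between the GH71 genes on high versus low melanin necromass, −0.09, ranged from −0.22 to 0.11 and changed sign without low melanin replicate 3. Against glucose it depended on the number added to each count, from 1.57 to 2.56 with low melanin and from 1.47 to 2.47 with high melanin necromass. Under glmTreat, 765 and 931 genes were called higher on low and high melanin necromass versus glucose, against 1120 and 1257 in the main fit. Called lower were 379 and 510 genes, against 669 and 819. Between the necromass types 1 gene was called in each direction, against 61 and 20. The glmTreat test takes the threshold itself as its null, and both GH71 genes remained called against glucose. For M419DRAFT_108342 this call, like those of the other fits with the filter, is a description, since it passed only through the necromass libraries. With 1 library left out, 32 to 78 genes were called higher on high than on low melanin necromass. By Pearson correlation in place of distance, 0 of the 3 nearest genes were shared for M419DRAFT_75378 and 0 for M419DRAFT_108342, and of the 3 nearest CAZyme genes 0 and 1, so the names of like genes depend on the measure.

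The labels do not say that replicate numbers pair the cultures. Deviations from the group means correlated between −0.17 and 0.08 across genes for the 9 pairs of same-numbered libraries, and in 2 of 18 searches a library correlated best with its own number in another group, so the numbers were not taken as pairs. With the replicate number as a block, the log2 fold changes were 2.63 and 3.15 for M419DRAFT_75378 and 4.65 and 5.08 for M419DRAFT_108342 against glucose, and 0.52 and 0.43 between the necromass types. The replicate block gave 1134 genes called higher on low and 1284 on high melanin necromass versus glucose, against 1120 and 1257. Between the necromass types 551 genes had an adjusted p under 0.05 with the block, against 856 without it (edgeR's quasi-likelihood test). Depth limits the glucose level of M419DRAFT_108342, where 3 counts equal 0.133 to 0.157 CPM.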
